A study of Homo sapiens with 6 samples.

Results

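GPRC5A, the gene of an orphan receptor of epithelia, was read as the row of that gene name in a table of 426 genes that the authors list as changed in MKN28 cells depleted of VPS35. It is 1 gene of those 426. MKN28 is a human gastric cancer cell line. The 3 vector samples carried a control vector and the 3 shVPS35 samples carried short hairpin RNA against VPS35, the core subunit of the retromer complex that recycles membrane proteins from endosomes. The labels name no further allele or agent, and whether a single hairpin or clone gave the knockdown samples is not said. The series calls the samples biological replicates without saying how they were kept apart, so their spread may be partly technical. The authors give 1 expression value per gene and sample in a unit that the header does not name. Read depth is unknown.

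GPRC5A encodes a receptor that crosses the plasma membrane several times. It belongs to class C of the G protein coupled receptors, has a short extracellular end and has no settled ligand. It was found as a transcript induced by retinoic acid, the vitamin A derivative that acts through nuclear receptors. It is abundant in lung and other epithelia, and mice without Gprc5a develop lung tumours. Studies in lung cells and in these mice have tied the protein to the EGF receptor, which it binds, and to NF-kB and STAT3 signalling. Its RNA level is measured here, and the protein and its place in the cell are not.

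The gene (ENSG00000013588) lies on chromosome 12 of GRCh38, from 12890782 to 12917937 on the plus strand, in GENCODE 29. Its full-length transcript has 4 exons, of which 3 hold coding sequence, for 357 codons. The microRNA gene MIR614 lies within exon 4, at 12915829 to 12915918 on the same chromosome, and is the only other gene that overlaps GPRC5A. The nearest coding gene downstream is GPRC5D, a receptor of the same family, 22.8 kb away. DDX47, an RNA helicase gene, is 60.8 kb upstream. Neither neighbour is in the table.

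GPRC5A RNA was lower in every shVPS35 sample than in every vector sample. Its expression value was 148.84 in vector sample 1, 147.66 in sample 2 and 139.05 in sample 3. It was 63.45, 67.48 and 63.80 in shVPS35 samples 1, 2 and 3. The groups do not overlap, and the gap between the lowest vector and the highest shVPS35 sample, 71.6, is wider than the range within the vector samples, 9.79, and within the shVPS35 samples, 4.03. Vector sample 3 is the lowest of its group, and shVPS35 sample 2 is the highest of the other.

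The mean value was 145 ± 5.34 in the vector group and 64.9 ± 2.23 in the shVPS35 group (SD, n = 3 each), so 44.7% of the vector level was left, a 2.24-fold lower level. Over the 9 pairs of a knockdown and a vector sample, what was left ran from 42.6% to 48.5%. Measured as log2(value + 1), GPRC5A differed by -1.15 ± 0.04 (SE from the spread within the groups). GPRC5A is in the table because it differs between these same 6 samples, so these values are a description and no test was run on them.

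**Figure D1:**
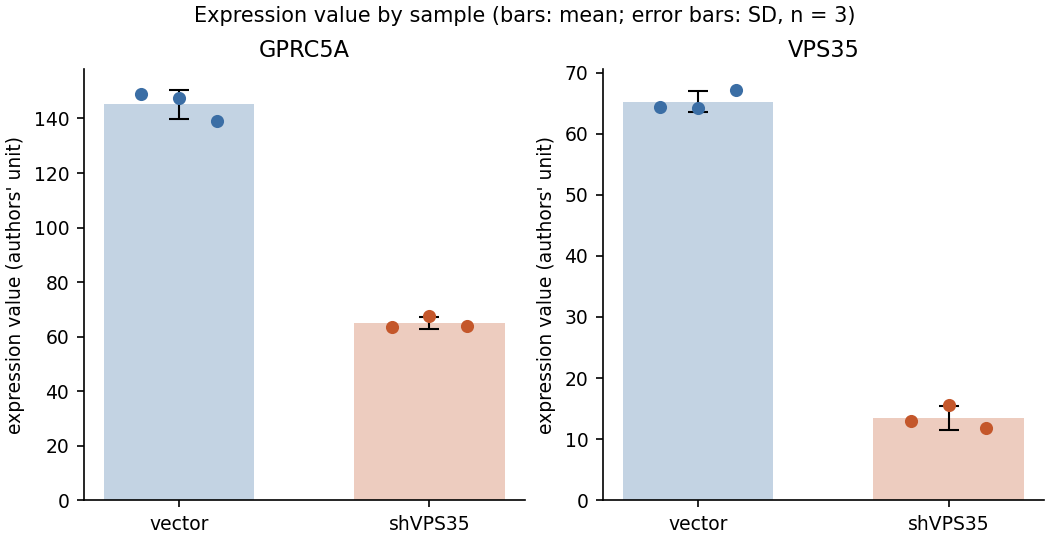
Expression value (authors' unit, linear axis from 0) of GPRC5A on the left and VPS35 on the right. Points are the 3 samples of each group in replicate order, bars are means and error bars are SDs. GPRC5A lies between 139.05 and 148.84 in vector and between 63.45 and 67.48 in shVPS35 samples.

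VPS35, the targeted gene, was read beside it. With the control vector its 3 values were 64.39, 64.25 and 67.21, and with the hairpin RNA they were 12.94, 15.60 and 11.75. The knockdown left 20.6% of VPS35 RNA. All 3 libraries labelled shVPS35 are far below all 3 labelled vector, as their labels say.

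In the authors' deposited table the fold of GPRC5A is 0.431 and the log2 fold change -1.21. The ratio of the group means is 0.447, so the authors' fold is 0.964 times the ratio of the means. Over the 124 listed genes with a mean of 5 or more, the median of that quotient was 0.981, with a lowest decile of 0.902 and a highest decile of 1.06. GPRC5A lies between these deciles.

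The p-value of GPRC5A in the authors' deposited table is written as 0, as for VPS35, SERPINE2 and TGFBI. These 4 genes are below the smallest p that the authors' deposited table writes as a nonzero number, 2.5e-286 for F3. All 4 are lower in shVPS35 cells. Within the 4, the authors' deposited table gives GPRC5A the log2 fold change nearest to 0, against -2.38 for VPS35, -2.15 for SERPINE2 and -3.14 for TGFBI. Of the 236 genes that the authors' deposited table lists as lower, 59, or 25%, have a log2 fold change nearer to 0 than GPRC5A. The median of the 236 is -1.55, and the table holds no gene with an absolute log2 fold change of 1 or less. GPRC5A therefore combines a p at the limit of the authors' number format with a fold of modest size among the listed genes.

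**Figure D2:**
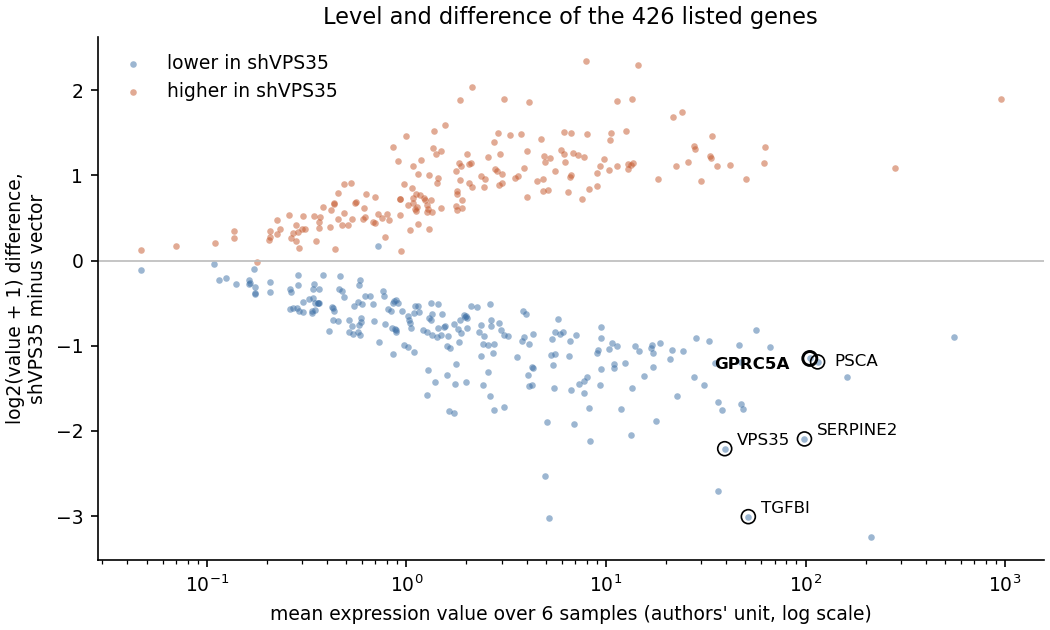
Mean expression value over the 6 samples (authors' unit, log axis) against the log2(value + 1) difference, shVPS35 minus vector, for the 426 listed genes, coloured by the direction in the authors' table. GPRC5A, at a mean of 105 and a difference of -1.15, lies at the right of the plot beside PSCA, and above VPS35, SERPINE2 and TGFBI.

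By mean value over the 6 samples, 105, GPRC5A was the seventh highest of the 426 listed genes and the fifth highest of those that fell. By the vector mean alone it ranked 8, and by the shVPS35 mean alone it ranked 9. Ranking genes by level takes the values as scaled by transcript length, as the TPM and FPKM of RSEM are, which the header does not state. In vector samples its closest neighbours were PSCA and SERPINE2 above it and TGFBI below it. PSCA, a surface antigen of gastric epithelium, had a value of 167.10, 160.64 and 152.74 in the vector samples. SERPINE2, which encodes a secreted serine protease inhibitor, had 158.19, 162.98 and 160.80. The values of PSCA and SERPINE2 overlap each other, and neither overlaps those of GPRC5A.

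In shVPS35 samples the order around GPRC5A was different. PSCA had values of 71.92, 70.99 and 66.09, which overlap those of GPRC5A, although PSCA was the higher of the pair in each of the 6 samples. RNF182, a ubiquitin ligase gene that rose, had values of 65.09, 71.84 and 62.97 and overlapped GPRC5A too. SERPINE2 was then below GPRC5A in every sample, at 35.48, 38.43 and 36.77. CD83, a surface protein known from mature dendritic cells, went the other way. It was below GPRC5A in all 3 vector samples, at 34.15 to 35.93, and above it in all 3 shVPS35 samples, at 87.66 to 94.08.

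The listed genes with a mean value of 50 or more were taken as the highly expressed rows. There were 14, of which 9 were lower and 5 higher in shVPS35 cells by the authors' call (adjusted p below 0.05 and absolute log2 fold change above 1). All 14 have groups that do not overlap, as do 398 of the 426 listed genes. The authors' call was made for 2.65% of 16063 genes tested, 1.47% as lower and 1.18% as higher. The number 16063 was inferred from the authors' p-values and adjusted p-values. Every row of the table was chosen by the authors' call, so nothing is read from the separation. SPINK6, an inhibitor of kallikrein proteases, fell most of the 14, by -3.24 ± 0.12 in log2(value + 1) (SE, n = 3 per group). TGFBI, an extracellular matrix protein gene, differed by -3.01 ± 0.06 and SERPINE2 by -2.09 ± 0.03. CDKN1A, the gene of the cell cycle inhibitor p21, had 38.4% of its vector level left, and PSCA had 43.5%.

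GPRC5A was the sixth of the 9 by size of fall, after PSCA at -1.19 ± 0.05 and before MT1X at -1.01 ± 0.16 on the same scale. GPRC5A and PSCA differed in this by no more than the SE of either. MT1X, a metallothionein gene, had values of 45.64, 35.21 and 50.78 in the shVPS35 samples and varied most of the 14 there, with a coefficient of variation of 18.1%. The median difference of the 9 was -1.19, and that of all 236 genes that fell was -0.84, where low genes are pulled towards 0 by the added 1. Of the 5 that rose, AL355075.4, an RNA gene that overlaps RPPH1 on the same strand in GENCODE 29, changed by 1.89 ± 0.08, CD83 by 1.33 ± 0.04 and the stress response gene NUPR1 by 1.14 ± 0.02.

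GPRC5A varied little between samples of a group. Its coefficient of variation was 3.68% in vector and 3.44% in shVPS35 samples. Over the 14 highly expressed rows, the range was 0.387% to 6.20% in vector, with a median of 2.55%, and 0.265% to 18.1% in shVPS35, with a median of 5.51%. From the lowest up, GPRC5A was 11 of 14 in vector and 3 of 14 in shVPS35 samples. In vector the spread came from sample 3, which was also the lowest vector sample for 9 of the 14 rows and for 45.2% of the 124 genes with a mean of 5 or more. In shVPS35, sample 2 was the highest for 8 of the 14. Left without vector sample 3, the GPRC5A difference was -1.18.

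**Figure D3:**
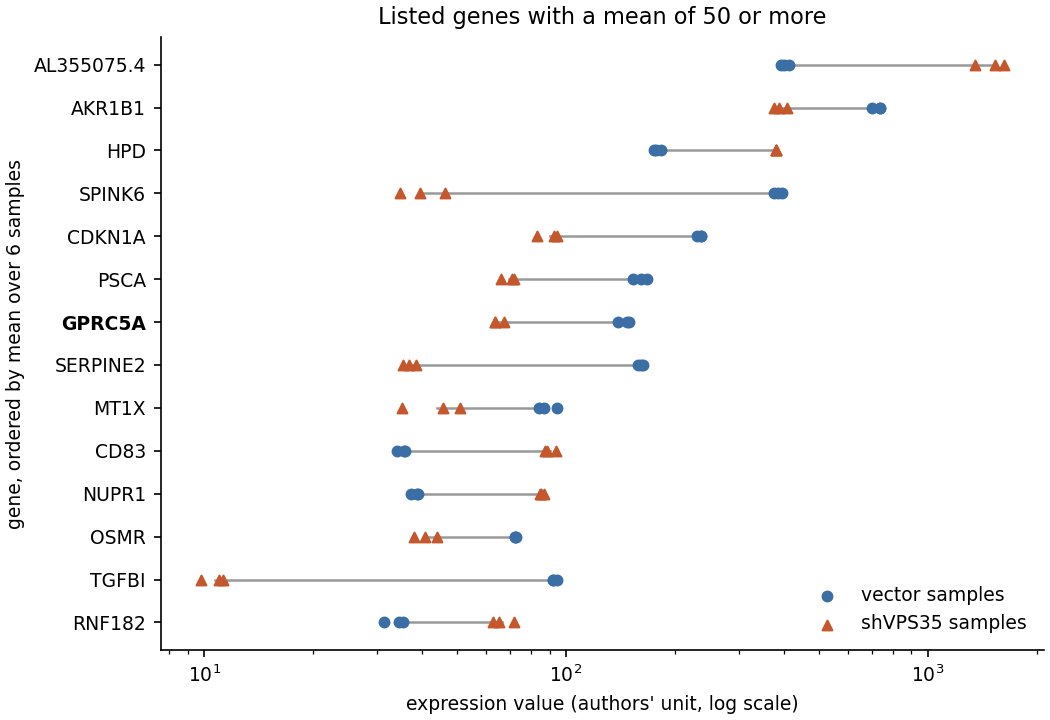
Expression value (authors' unit, log axis) of each sample for the 14 listed genes with a mean of 50 or more, ordered by mean. Circles are vector samples, triangles are shVPS35 samples, and grey lines join the group means. GPRC5A (bold) lies just below PSCA and SERPINE2 in vector samples and overlaps PSCA and RNF182 in shVPS35 samples, and all 14 rows have separate groups.

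To find the listed genes whose pattern was nearest, each value was set against the vector mean of its own gene on the log2(value + 1) scale, and the root mean square difference from GPRC5A over the 6 samples was taken. It was computed for the 123 other genes with a mean of 5 or more. The nearest 5 were TSPAN14, PSCA, STS, PLK2 and EPS8, at 0.04, 0.05, 0.06, 0.06 and 0.07. For comparison, the median was 0.23 over the 71 such genes that fell, and 9 genes were within 0.1. Every gene here was listed for the same contrast, so nearness mostly says that the fall was of the same size.

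TSPAN14 encodes a tetraspanin, a membrane protein that partners the protease ADAM10. Its value was 30.27, 29.66 and 28.20 in vector and 13.05, 12.44 and 12.38 in shVPS35 samples, which left 43.0%. Its vector sample 3 was the lowest of its group, as for GPRC5A, while its highest shVPS35 sample was sample 1. STS, the steroid sulfatase gene, had 12.50, 12.77 and 12.69 in vector and 5.29, 5.79 and 5.30 in shVPS35 samples. Its shVPS35 sample 2 was the highest, as for GPRC5A.

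PLK2, a polo-like kinase gene, had 51.69, 50.49 and 46.64 in vector and 22.06, 21.54 and 19.59 in shVPS35 samples. EPS8 encodes a substrate of the EGF receptor that binds actin, and had 32.80, 35.77 and 31.25 in vector and 15.20, 15.50 and 15.30 in shVPS35 samples. Among the 5 the share of the vector level left ran from 42.5% for PLK2 to 46.1% for EPS8, around the 44.7% of GPRC5A. The levels differ more than the shares, with a mean over the 6 samples from 9.06 for STS to 115 for PSCA.

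**Figure D4:**
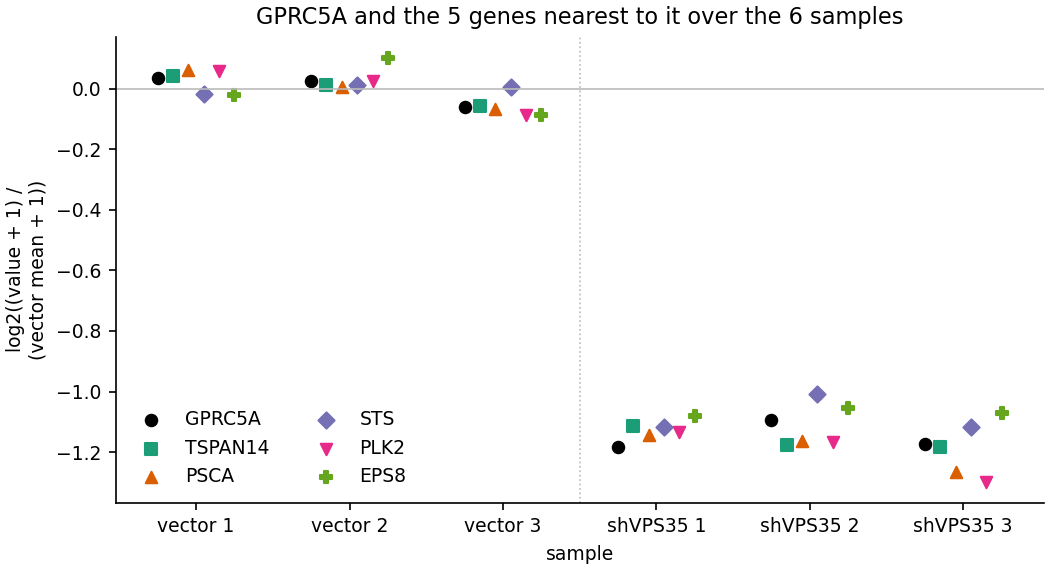
The log2 of (value + 1) over (vector mean + 1) in each of the 6 samples for GPRC5A and the 5 genes with the smallest root mean square difference from it. The points of the 6 genes lie near 0 in vector samples and between about -1 and -1.3 in shVPS35 samples.

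With Pearson's r of log2(value + 1) over the 6 samples in place of that measure, none of the 5 was among the nearest 5, which were SERINC2, CCND1, CD68, DUSP5 and MUC13. These were named after the values were seen. By that measure the 5 genes above still have an r of 0.996 to 0.998, since r over 6 samples in 2 groups mainly reads the group difference.

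GPRC5A was the only one of the GPRC5 family in the table. GPRC5B on chromosome 16, GPRC5C on chromosome 17 and GPRC5D on chromosome 12 are not listed. The other class C receptors, such as the calcium-sensing receptor and the GABA B and metabotropic glutamate receptors, had 0 of 18 listed. Genes that are not in the table did not pass the authors' call or were not in their test, and nothing is known here of their level. Of 34 genes of G protein subunits, arrestins and RGS proteins, which carry or end the signals of such receptors, 0 were listed. All of these counts stand against 2.65% of tested genes listed. How many members of these lists were tested is unknown, and at that share lists this short would often have none listed. Nothing is therefore read from these counts.

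Of 66 other G protein coupled receptors of epithelia, 3 were listed, or 4.55%, which is near the 2.65% of all tested genes. CXCR4, the receptor of the chemokine CXCL12, rose. Its value was 14.47, 16.40 and 16.19 in vector and 38.21, 35.52 and 34.47 in shVPS35 samples, a change of 1.15 ± 0.07 in log2(value + 1) (SE), opposite in sign to that of GPRC5A. F2R, the thrombin receptor gene, fell from 5.88 ± 0.383 to 2.79 ± 0.270 (SD, n = 3 per group). NTSR1, the neurotensin receptor gene, fell by the authors' call and had low values, at 0.477 ± 0.144 and 0.213 ± 0.0764. The list does not hold every G protein coupled receptor gene in the table. GPR1 and the olfactory receptor gene OR51B5 were not on it and are listed as lower. Both were named after the values were seen. By its mean of 105, against 25.9 for CXCR4, GPRC5A was the highest of the listed receptors on these lists.

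Retinoic acid gives GPRC5A its older name, and 35 other genes of retinoic acid receptors, metabolism and targets were looked up. TGM2, a transglutaminase gene that retinoic acid induces, was the 1 listed, or 2.86%, near the 2.65% of all tested genes. Its value was 14.79, 14.21 and 13.29 in vector and 2.47, 2.09 and 2.91 in shVPS35 samples. That left 17.7%, less than for GPRC5A. The retinoic acid receptors, the CYP26 enzymes that break retinoic acid down, DHRS3 and RARRES1 are not listed. The share holds for this list only, which does not hold every gene known to respond to retinoic acid. HOTAIRM1, an RNA gene also reported to be induced by it, was not on the list and was named after the values were seen. It is listed as lower, at 20.1 ± 0.0917 in vector and 9.16 ± 0.725 in shVPS35 samples (SD, n = 3 per group).

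For the EGF receptor, 11 genes of the receptor family and its ligands were looked up. The ligand genes EPGN, EREG, TGFA, AREG and EGF fell, 5 of the 11 or 45.5%, against 2.65% of all tested genes listed and 1.47% listed as lower, while EGFR and its relatives ERBB2, ERBB3 and ERBB4 are not listed. EREG had values of 10.22, 10.83 and 12.37 in vector and 3.46, 3.21 and 3.64 in shVPS35 samples. TGFA had 9.13, 8.23 and 8.18 against 1.57, 3.25 and 2.48, and its shVPS35 samples had a coefficient of variation of 34.6%, against 3.44% for GPRC5A. EGF had a mean of 0.407 in vector and 0.117 in shVPS35 samples, a level at which few reads decide the value. The list of 11 does not hold every ligand of the family, so its share is that of the list only. NRG1, the gene of a ligand of ERBB3 and ERBB4, was not on it and was named after the values were seen. It is listed as lower, at 6.49 ± 1.48 in vector and 2.10 ± 0.465 in shVPS35 samples (SD, n = 3 per group).

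Genes of the NF-kB and STAT3 pathways, named above, were looked up too. Of 20 NF-kB target genes 7 were listed, or 35%, and all 7 were lower in shVPS35 cells, against 2.65% of all tested genes listed and 1.47% listed as lower. BIRC3, an inhibitor of apoptosis, had values of 47.48, 40.70 and 49.51 in vector and 16.06, 18.01 and 14.05 in shVPS35 samples. The adhesion receptor gene ICAM1 fell from 14.5 ± 1.82 to 6.96 ± 0.917 and RELB, an NF-kB subunit gene, from 5.78 ± 0.563 to 2.48 ± 0.618 (SD, n = 3 per group). CXCL2, IL1A, IL1B and CXCL8, which encode cytokines, were also listed as lower, the last 3 with means of 1.28 or less. Both the share and the common direction belong to these 20 genes only, which are not all known NF-kB targets. CD83, described above, has been reported as a target as well but was left off the list. Its difference in log2(value + 1) had the opposite sign, 1.33 ± 0.04 (SE), and it was added here with its values known. Of 19 genes of the IL6 family and STAT3 signalling, only OSMR, the oncostatin M receptor gene, was listed, or 5.26% against the same 2.65%. It had values of 72.46, 72.04 and 72.57 in vector and 37.95, 43.86 and 40.87 in shVPS35 samples. These list members, like GPRC5A, are in the table because of the same contrast, and the lists were drawn up with earlier results of these data known.

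**Figure D5:**
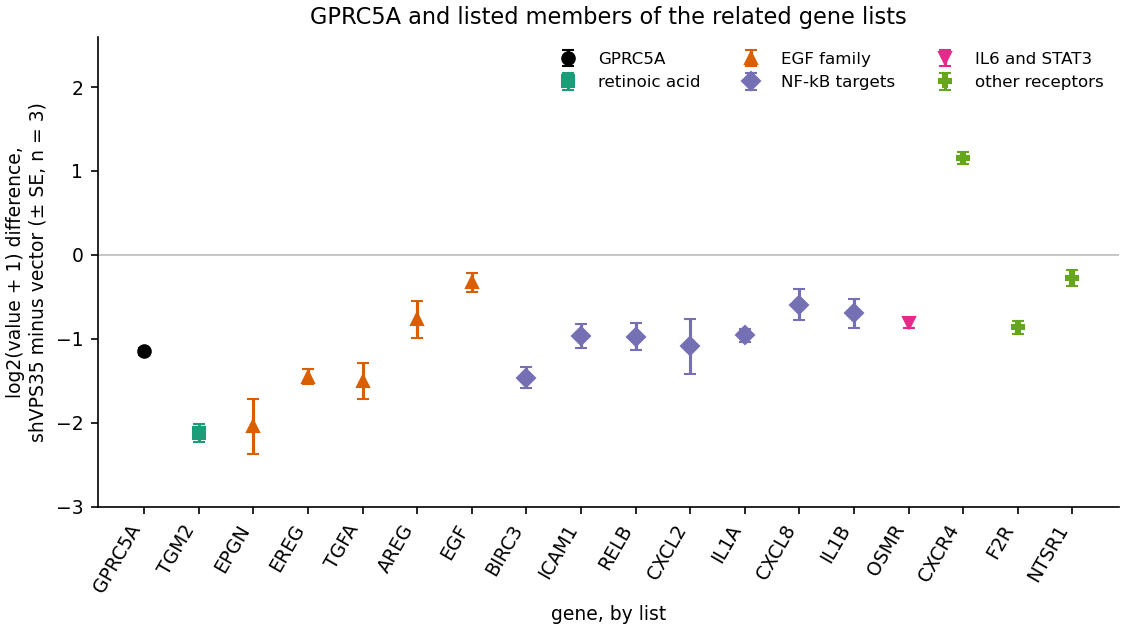
Difference of log2(value + 1), shVPS35 minus vector, with its SE (n = 3 per group) for GPRC5A and for the listed members of 5 gene lists. Of the members shown, CXCR4 alone is above 0, and low genes such as EGF, CXCL8 and NTSR1 lie nearer to 0 because of the added 1.

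On chromosome 12, 112 coding genes other than GPRC5A lie within 5 Mb of it, and 2 of them are listed, EPS8 at 2.70 Mb, which fell, and A2M at 3.77 Mb, whose values of 0.380 ± 0.321 and 0.497 ± 0.211 overlap between groups (SD, n = 3 per group) although the authors' deposited table has it higher. These 2 of 112 stand against the same 2.65%. The pseudogene RPL13AP20, 14.7 kb upstream of GPRC5A, is listed as lower, at 1.72 ± 0.830 and 0.310 ± 0.104. The pseudogene TPT1P12, at 3.73 Mb, is listed as higher, at 1.74 ± 0.209 and 6.29 ± 3.95. Pseudogenes are copies of other genes, so their reads may be shared. In all, 2 of the 4 listed genes within 5 Mb were lower and 2 were higher. These neighbours were named after their values were seen.

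The line's epithelial identity could be read only in part, since of 15 epithelial markers only the gastric genes GKN1 and GKN2 are in the table, 13.3% against 2.65% of all tested genes, and both fell. GKN2 had 6.37 ± 0.562 in vector and 2.14 ± 0.746 in shVPS35 samples (SD, n = 3 per group). Of 13 markers of other cell types, CD68, DCN, LUM and CDH5 are listed. These 4, or 30.8%, stand against 2.65% of all tested genes. By the authors' call 3 were lower and DCN, a matrix proteoglycan gene of fibroblasts, was higher, at 1.48 ± 0.485 in vector and 4.19 ± 1.22 in shVPS35 samples. CD68, known from macrophages and also a lysosomal protein, fell from 55.6 ± 1.33 to 16.9 ± 0.369. The summed value of the 4 was 57.99 to 61.25 in vector and 20.79 to 24.21 in shVPS35 samples. CD68 made up most of that sum in every sample, at 54.36 to 57.01 in vector and 16.53 to 17.25 in shVPS35 samples. The fall of the sum is therefore mainly that of CD68. LUM had low values that overlap between groups, at 1.17 ± 0.429 in vector and 0.560 ± 0.373 in shVPS35 samples. CDH5 was low too, at 0.980 ± 0.234 and 0.547 ± 0.121. The other 9 markers are not in the table. All 6 samples are titled as the MKN28 line, so these values are read as those of its cultures. A part of other cells in the GPRC5A values was not tested. In bulk samples fewer cells that express a gene and less RNA per cell cannot be told apart.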

How the data were processed

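RNA was sequenced from 3 vector and 3 shVPS35 samples of MKN28 cells. The submitters' processing notes name fastp, HISAT, RSEM and GRCh38.p13. For versions, roles and annotation the sources used here say nothing. The deposited table holds the authors' expression signal per gene and sample, to 2 decimals, with no unit named. Per the file headers it also holds the authors' fold ratio, its log2, p-value and adjusted p-value, with no word on the test behind them. Columns were matched to samples by name and groups by title. No 2 samples shared a value in more than 12 of the 426 genes.

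Means, SDs and differences of log2(value + 1), a scale that understates changes of low genes, were computed with Python 3.11.15, numpy 2.4.6 and pandas 2.3.3, and plots with matplotlib 3.10.9. The SE comes from the 3 samples per group, unmoderated. The number of genes tested, 16063, was inferred from the authors' p-values and adjusted p-values. It makes 387 of 422 nonzero adjusted p-values match a whole rank within 0.01. Gene positions come from GENCODE 29 on GRCh38, whose primary assembly is that of the authors' build, and 421 of 426 identifiers matched.

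GPRC5A and the gene lists were chosen with earlier results of these data known. Named genes are GPRC5A, VPS35, listed members of the lists, the 5 nearest in pattern, and, of the genes with a mean of 50 or more, the 3 next above and below in level and the 3 that fell and rose most. Exceptions are named as such or given as neighbours in level. No test was run, since every value comes from the contrast that chose the table.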

Additional observations from a re-analysis of the deposited data

How the results depend on the processing

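The GPRC5A difference of -1.15 kept its sign and moved by less than the spread between samples under each alternative tried. It was -1.16 with a pseudocount of 0.1, -1.10 with 5, and -1.13 when samples were centred on the median listed gene. Leaving out each sample in turn gave -1.18 to -1.13. With the replicate block it was -1.15 with an SE of 0.03 in place of 0.04. The correlation of deviations between samples of the same number was 0.24, 0.03 and 0.23 over 124 genes. Numbers 1 and 3 are above the limit of 0.1 set for pairing, and number 2 is below it. The labels name no pairs, and the main SE takes the samples as unpaired. Whether samples of the same number share an effect was not tested. The highly expressed rows depend on the limit. With a mean of 20 or more, 26 fell and 17 rose, and with 100 or more, 5 fell and 2 rose. Without AL355075.4, chosen after seeing the data, 9 fell and 4 rose. Of the 5 genes nearest to GPRC5A, 0 remained with Pearson's r, 4 with a pseudocount of 0.1, 5 with no filter on low values and 3 to 5 when each sample was left out. The 3 came without vector sample 3, when ITGA2 and GDF15 took the places of STS and PLK2. Of the 23 listed members of the gene lists, 18 had a higher group mean of 1 or more. Depth is unknown, and genes outside the table cannot be read, so a gene that changed below the authors' limits would not be seen.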
